A study of Mus musculus with 5 samples.

Results

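Aggrecan, the matrilins and their partners in the cartilage matrix were followed as 10 genes across the cells of newborn mouse growth plates. They were Acan, Hapln1, Vcan, Hspg2, Matn1, Matn3, Matn4, Cnmd, Ucma and Mgp, taken by name from the 29818 genes counted in the series, so that 10 of 29818 genes were described and all 10 had counts in every library.

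Cartilage withstands load because aggrecan, a proteoglycan that carries many charged sugar chains, draws water into the tissue. Aggrecan binds hyaluronan, and the link protein encoded by Hapln1 locks the pair together. Versican (Vcan) is a related hyaluronan-binding proteoglycan of looser connective tissue, and perlecan (Hspg2) is a heparan sulfate proteoglycan of basement membranes and of cartilage. The matrilins (Matn1, Matn3, Matn4) are adaptor proteins that tie aggrecan to collagen fibrils. Chondromodulin (Cnmd) inhibits blood vessel growth, and Ucma and matrix Gla protein (Mgp) carry gamma-carboxylated glutamate residues, the latter being an inhibitor of mineralization.

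Cells came from femoral and tibial growth plate cartilage of 5 littermate pups labelled as strain C57BL/6J, released with collagenase and captured as 1 library per pup. Pups 1 and 2 were labelled WT. Pups 3, 4 and 5 were labelled Mutant and carried a conditional Trpv4 p.R594H knock-in allele together with Col2a1-Cre, which recombines in chondrocytes, so that the mutation was not meant to be expressed in cells without Col2a1-Cre activity. By the study's methods, the Cre line came from a mixed B6SJL background before its crosses to C57BL/6J. The age was given as postnatal day 3 in the series description and as day 5 in the sample labels, and the labels did not say which of the alleles the WT littermates carried. The study asked what the activated TRPV4 channel changes in gene expression of growth plate cells. Each transcript was counted as a unique molecular identifier (UMI), a tag that lets PCR copies of 1 molecule be counted once.

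In all, 82516 cells were kept, from 13814 to 19133 per pup, and they held 116544529 to 173680933 UMIs per library, of 117746735 to 183322632 over all deposited barcodes. The median kept cell held 9261 and 8521 UMIs in the WT pups and 6657, 6000 and 7016 in the Mutant pups, so depth moved with the label. Pups 3 and 4 expressed Xist and pups 1, 2 and 5 expressed Ddx3y, so that sex also moved with the label in part. Trpv4, the targeted gene, stood at 160 and 102 CPM (UMIs of the gene per 1000000 UMIs counted) in the WT pups and at 90.3, 148 and 175 CPM in the Mutant pups. These ranges overlapped, and a knock-in of this kind is not read by the UMI count. Any 2 libraries shared 3 to 7 cell barcodes.

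Clusters were built without the 10 genes and sorted into 24 classes, called by marker lists or by limits on the level of marker genes. The 7 classes rich in Col2a1, the gene of the main cartilage collagen, held 48266 cells or 58.5% of all. They were the Dlk1-high class (21559 cells), the Prg4-high class (8797), the Fgfr3-high class (6991), the Col1a1-high chondrocytes (5335), the Tgfbi-high class (3304), the Ihh-high class (1983) and the Col10a1-high class (297). Prg4 is the lubricin gene of the joint surface, Ihh marks chondrocytes that have stopped dividing, and Col10a1 marks hypertrophic chondrocytes. Outside cartilage, the largest classes were Postn-high (8449), Tnmd-high (7312), Col1a1-high with low Postn (5238) and Cd34-high (4555). The Dlk1-high class was the remainder of the Col2a1-rich clusters, those that met none of the limits on other genes. Dlk1, a gene of the resting marker list that encodes a Notch-like surface protein, stood at 3198 to 6270 CPM in its 8 clusters, but also at 5019 CPM in the Col1a1-high chondrocytes and at 3668 to 5519 CPM in the Prg4-high clusters, against 517 to 847 CPM in the Fgfr3-high clusters. The Dlk1-high class was not called resting cartilage, because 7 of its 8 clusters scored best for the proliferating chondrocyte markers and 1 for the resting ones. All 5 Prg4-high clusters scored best for the articular markers. The Col10a1-high cluster scored best for the prehypertrophic markers, as did 1 of the 2 Fgfr3-high clusters, the other scoring best for the proliferating ones. Of the 3 Postn-high clusters, 2 scored best for perichondrial markers and 1 for tendon markers. A class had to hold at least 20 cells in every pup to be compared, and 18 classes did.

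**Figure D1:**
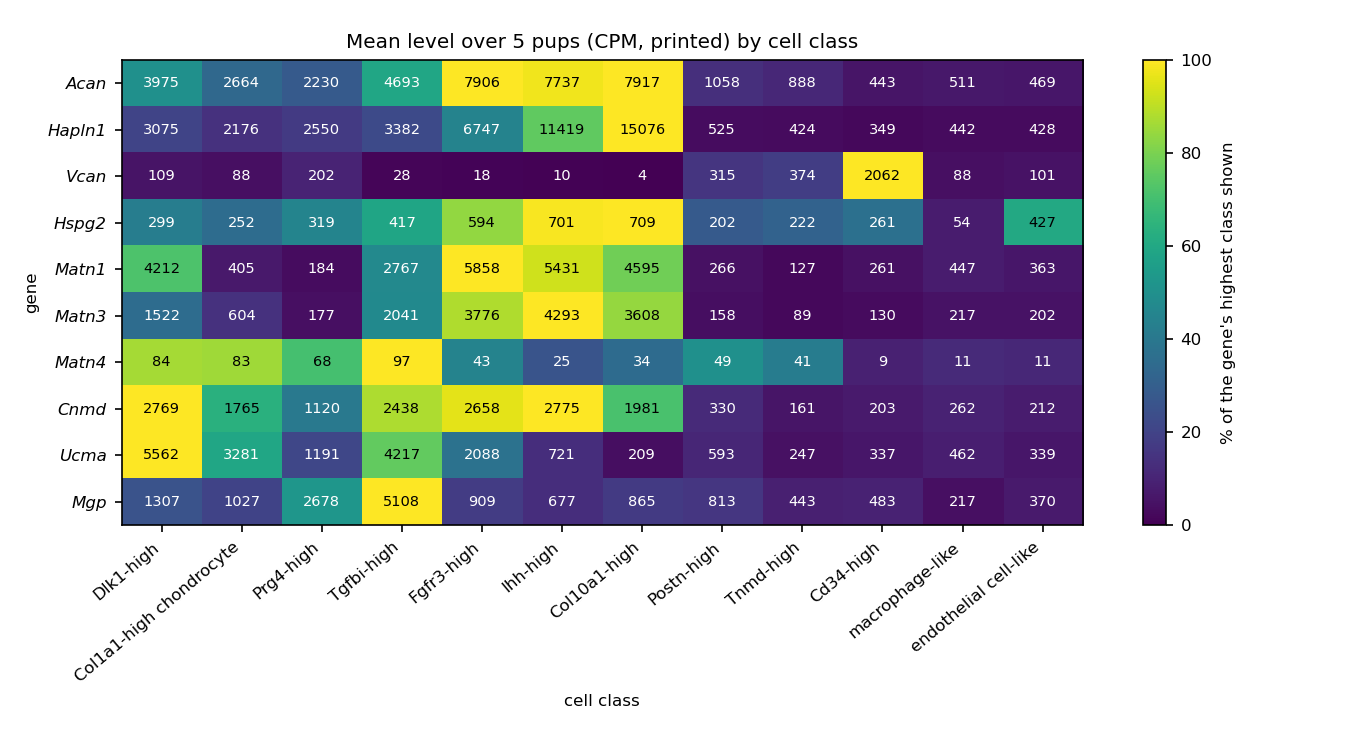
Heat map of the mean CPM of the 10 genes (rows) in 12 cell classes (columns), as the mean of the 5 pups. The printed number is the CPM and the color is its percentage of the highest class shown for that gene. Acan and Matn1 were brightest in the Fgfr3-high, Ihh-high and Col10a1-high classes, Ucma in the Dlk1-high class, Mgp in the Tgfbi-high class and Vcan in the Cd34-high class.

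A cell that does not make a transcript can still hold UMIs of it from free RNA released during dissociation, so the background came first. It was read from 1051 cells with a Csf1r UMI in macrophage-like clusters and from 522 cells with a Pecam1 UMI in endothelial cell-like clusters. In the Csf1r cells Acan stood at 634, 480, 287, 383 and 631 CPM in pups 1 to 5, a mean of 483 ± 153 CPM (SD, n = 5). The Pecam1 cells gave 467 ± 304 CPM. Pup 3 was lowest and pups 1 and 5 were highest in both kinds of cell. Col2a1 itself was at 9404 ± 2837 CPM in the Csf1r cells.

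Set against Col2a1, most of the genes kept close to 1 ratio in cells that should not make them. Acan UMIs came to 5.26% ± 1.19 of the Col2a1 UMIs in the Csf1r cells, 5.40% ± 1.07 in the Pecam1 cells and 6.23% ± 1.00 in all kept cells (SD, n = 5). Cnmd came to 2.68%, 2.59% and 2.82% in the same order. Hspg2 departed from this, at 0.560% in the Csf1r cells but 6.20% in the Pecam1 cells, where its level was 428 ± 42.6 CPM against 51.4 ± 14.9 CPM. Mgp was also higher in the Pecam1 cells, at 370 ± 60.6 CPM against 199 ± 33.6 CPM, with no overlap between the pups' ranges. Vcan departed too, at 0.919% ± 0.17 in the Csf1r cells, 1.61% ± 1.39 in the Pecam1 cells and 0.418% ± 0.25 in all kept cells. Whether the Csf1r cells make Vcan was not tested, so their Vcan level may not be free RNA alone. Because Hspg2 and Mgp were higher in the Pecam1 cells, the Csf1r cells were taken as their background. That background was not the highest in the libraries, because the erythroid cell-like class held Acan at 2274 ± 900 CPM with 5.92% of its Col2a1 UMIs, and the granulocyte-like class held 1002 ± 397 CPM. The erythroid cell-like class likewise held Hapln1 at 2214, Matn1 at 1485, Matn3 at 1015, Cnmd at 1093 and Ucma at 1657 CPM in the mean.

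**Figure D2:**
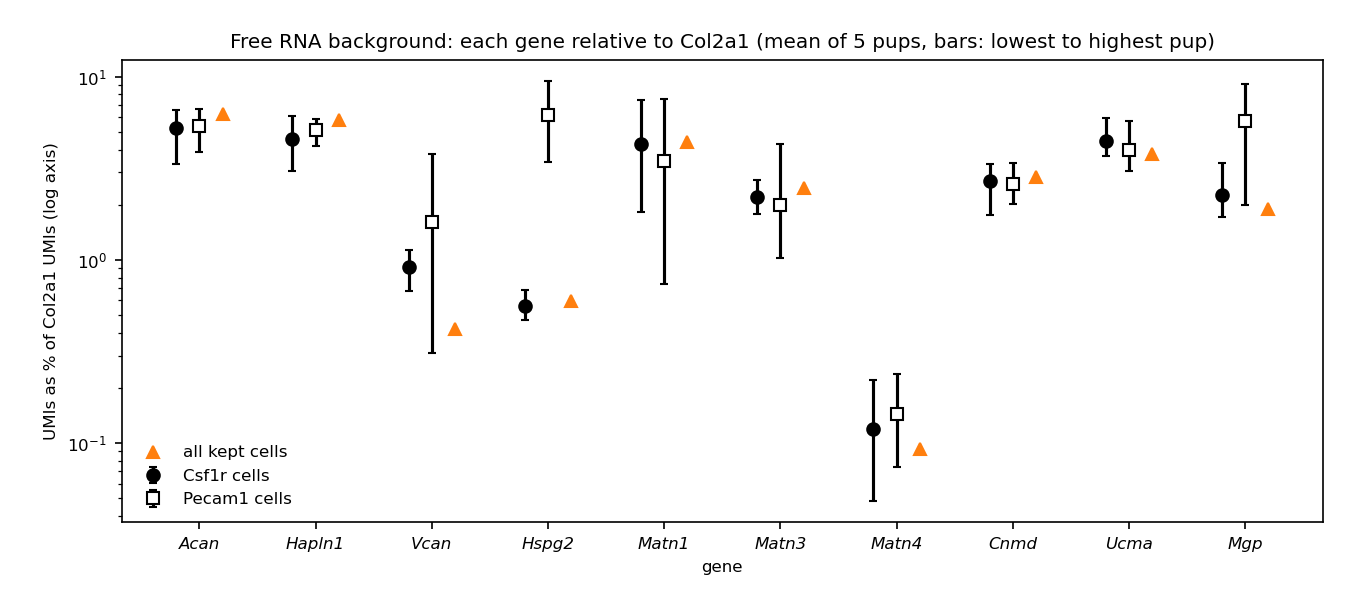
UMIs of each gene as a percentage of Col2a1 UMIs (log axis) in Csf1r cells (filled circles), Pecam1 cells (open squares) and all kept cells (orange triangles). Points are means of the 5 pups and bars run from the lowest to the highest pup. Hspg2 and Mgp stood higher in the Pecam1 cells than in the Csf1r cells, and the percentages of Acan and Cnmd were alike in all 3.

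Among the proteoglycans, Acan was highest in the growth plate classes that carry Fgfr3, Ihh or Col10a1. In the Fgfr3-high cells it stood at 8613, 8346, 7641, 7020 and 7908 CPM in pups 1 to 5, a mean of 7906 ± 622 CPM. The Col10a1-high class (7917 ± 567 CPM) and the Ihh-high class (7737 ± 540 CPM) overlapped this range. The Tgfbi-high class followed at 4693 ± 508 CPM and the Dlk1-high class at 3975 ± 377 CPM, whose ranges also overlapped. Every pup of the Dlk1-high class was below every pup of the 3 highest classes. Prg4-high cells held 2230 ± 202 CPM and Postn-high cells 1058 ± 207 CPM, while Cd34-high cells, at 443 ± 131 CPM, were not above the Csf1r cells on average. The Postn-high cells were above the Csf1r cells of their own pup in 5 of 5 pups, by 2.19-fold on average, although below the erythroid cell-like class in the mean.

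Nearly every cell of the cartilage classes held an Acan UMI, so the share could not separate their levels. After each cell was thinned to 3000 UMIs, 99.7% ± 0.13 of Dlk1-high cells, 97.7% ± 0.75 of Prg4-high cells and 82.5% ± 4.09 of Postn-high cells held an Acan UMI, against 31.3% ± 4.17 of macrophage-like cells. Cd34-high cells stood at 43.6% ± 7.48, above the macrophage-like share although their CPM was not above that class, so no order was read from this pair. Shallower cells were left out, 478 of the Dlk1-high, 490 of the Prg4-high, 368 of the Postn-high, 156 of the Cd34-high and 33 of the macrophage-like class. The shares without thinning were 99.7%, 98.8%, 92.0%, 59.8% and 48.5% in this order of classes.

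Hapln1, the link protein gene, separated the classes that Acan did not. It stood at 3075 ± 213 CPM in Dlk1-high cells, 6747 ± 637 CPM in Fgfr3-high cells, 11419 ± 544 CPM in Ihh-high cells and 15076 ± 321 CPM in Col10a1-high cells. The pups of each of these classes did not overlap those of the next. In Postn-high cells Hapln1 was at 525 ± 186 CPM, above the Csf1r cells in 4 of 5 pups by 1.28-fold and below the granulocyte-like class (858 ± 383 CPM) in the mean.

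Vcan ran the other way. It was highest in the Cd34-high class, at 2074, 2485, 2122, 1954 and 1677 CPM in pups 1 to 5, and the Cilp-high class, a set of 2938 cells below the Col2a1 limit of the cartilage classes, followed at 794 ± 107 CPM. Postn-high cells held 315 ± 118 CPM and Dlk1-high cells 109 ± 30.7 CPM. The level was 18.1 ± 6.20 CPM in Fgfr3-high cells, 9.60 ± 3.80 CPM in Ihh-high cells and 4.34 ± 3.11 CPM in Col10a1-high cells, so that the highest and lowest class means differed 476-fold. These last classes lay below the Csf1r cells (83.5 CPM). After thinning, 92.5% of Cd34-high cells held a Vcan UMI, against 12.9% of macrophage-like cells.

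Hapln1 and Vcan are neighbors on the chromosome. In GRCm38, Hapln1 lies at chr13:89539796-89611652 on the plus strand and Vcan at chr13:89655312-89742509 on the minus strand, with their 3′ ends facing each other across 43.7 kb that hold 0 protein-coding genes in the GENCODE annotation. Over the 24 classes their mean levels had a Pearson r of -0.75 on the log2 scale, given as a description because the classes share libraries and free RNA. Their promoters are shown because the neighbors differ so much in pattern, as RefSeq sequence of GRCm38.p6 from 250 bases before to 50 bases after the start, at chr13:89540386-89540685 for Hapln1 and chr13:89742463-89742762 (minus strand) for Vcan. Capitals mark the letters GGGCGG, the core of the SP1 motif, or their reverse complement.
Hapln1: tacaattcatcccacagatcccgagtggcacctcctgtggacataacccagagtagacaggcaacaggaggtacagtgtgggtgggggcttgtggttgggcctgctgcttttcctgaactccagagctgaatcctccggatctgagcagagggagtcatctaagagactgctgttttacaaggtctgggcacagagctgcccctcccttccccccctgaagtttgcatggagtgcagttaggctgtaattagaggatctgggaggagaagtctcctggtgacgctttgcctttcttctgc
Vcan: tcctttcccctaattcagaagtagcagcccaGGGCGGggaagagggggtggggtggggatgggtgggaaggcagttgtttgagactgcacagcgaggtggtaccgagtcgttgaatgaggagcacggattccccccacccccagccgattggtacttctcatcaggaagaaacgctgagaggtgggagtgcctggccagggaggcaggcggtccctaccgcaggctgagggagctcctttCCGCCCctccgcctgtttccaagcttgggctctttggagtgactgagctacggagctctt

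The Hapln1 window held no match, and the Vcan window held 2, at 219 and 10 bases before the start. GGGCGG was found on either strand in 35.7% of all 32851 promoters of this length and in 6 of the 10 promoter windows of the 9 genes that had one. The other motifs searched on both strands, ACAAAG and ACAATG (the core letters of SOX sites) and TATAAA, were in 18.7%, 12.6% and 13.6% of all promoters and in 0 of the 10 windows.

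Hspg2, the perlecan gene, differed less between classes. It was at 709 ± 51.2 CPM in Col10a1-high cells, 701 ± 33.6 CPM in Ihh-high cells, 594 ± 41.6 CPM in Fgfr3-high cells and 299 ± 35.2 CPM in Dlk1-high cells. Endothelial cell-like cells held 427 ± 42.2 CPM and macrophage-like cells 53.9 ± 10.2 CPM. Every pup's endothelial value was above those of the Dlk1-high and Prg4-high classes, and the endothelial and Tgfbi-high ranges overlapped. After thinning, 68.3% of endothelial cell-like cells held a Hspg2 UMI against 9.12% of macrophage-like cells.

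Of the matrilins, Matn1 and Matn3 shared a pattern and Matn4 had its own. Matn1 stood at 5689, 6012, 6015, 5774 and 5798 CPM in the Fgfr3-high cells of pups 1 to 5, a narrow range around a mean of 5858 ± 148 CPM. In the Dlk1-high cells the same pups gave 4420, 4155, 2933, 3427 and 6124 CPM, with pup 5 above its own Fgfr3-high value. Prg4-high cells held only 184 ± 93.3 CPM and Postn-high cells 266 ± 194 CPM, both below the Csf1r cells (422 ± 299 CPM) in the mean. After thinning, 11.1% of thinned Postn-high cells held a Matn1 UMI against 12.1% of macrophage-like cells. The erythroid cell-like class stood at 3.52-fold the Csf1r cells, above them in 5 of 5 pups, and the granulocyte-like class at 1.48-fold, above them in 4 of 5.

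Matn3, whose human counterpart is mutated in a form of multiple epiphyseal dysplasia, was at 4293 ± 455 CPM in Ihh-high, 3776 ± 568 CPM in Fgfr3-high and 3608 ± 385 CPM in Col10a1-high cells. These 3 ranges overlapped. It was at 1522 ± 162 CPM in Dlk1-high cells and at 177 ± 42.4 CPM in Prg4-high cells, and Postn-high cells were below the Csf1r cells in 5 of 5 pups. The promoters of these matrilin genes are shown because the genes moved together (Pearson r of 0.97 over 24 classes), at chr4:130944135-130944434 for Matn1 and chr12:8947679-8947978 for Matn3, both on the plus strand, with the same letters in capitals.
Matn1: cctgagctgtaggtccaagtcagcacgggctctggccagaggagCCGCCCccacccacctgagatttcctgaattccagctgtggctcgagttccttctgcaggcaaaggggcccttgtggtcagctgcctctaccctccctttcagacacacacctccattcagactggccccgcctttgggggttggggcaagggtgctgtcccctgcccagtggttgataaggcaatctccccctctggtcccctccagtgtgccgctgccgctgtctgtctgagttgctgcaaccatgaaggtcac
Matn3: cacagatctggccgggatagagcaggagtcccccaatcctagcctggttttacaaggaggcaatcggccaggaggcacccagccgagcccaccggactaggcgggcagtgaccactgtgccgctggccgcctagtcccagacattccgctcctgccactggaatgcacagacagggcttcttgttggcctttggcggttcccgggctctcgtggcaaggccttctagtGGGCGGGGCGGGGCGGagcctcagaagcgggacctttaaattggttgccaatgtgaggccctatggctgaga

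Matn1 had a single match 206 bases before the start. Matn3 had 3 overlapping matches at 22, 17 and 12 bases before it.

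Matn4 was a low transcript. Its highest means were 96.5 ± 46.6 CPM in Tgfbi-high cells, 83.5 ± 28.8 CPM in Dlk1-high cells, 82.7 ± 31.0 CPM in Col1a1-high chondrocytes and 67.9 ± 22.1 CPM in Prg4-high cells, against 43.0 ± 15.9 CPM in Fgfr3-high cells and 9.95 ± 4.25 CPM in the Csf1r cells. Pup 1 stood apart. Its Dlk1-high cells held 33.3 CPM where pups 2 to 5 held 102, 100, 85.4 and 96.6 CPM, and it was the lowest of the 5 pups in 16 of 18 classes.

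Cnmd was at 2775 ± 145 CPM in Ihh-high, 2769 ± 98.6 CPM in Dlk1-high and 2658 ± 220 CPM in Fgfr3-high cells, which overlapped, and at 1120 ± 72.3 CPM in Prg4-high cells. Postn-high cells held 330 ± 115 CPM, 1.35-fold the Csf1r cells and above them in 5 of 5 pups, but below the granulocyte-like (446 ± 116 CPM) and erythroid cell-like (1093 ± 353 CPM) classes in the mean.

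Ucma, named for its place in the upper zone of the growth plate, was highest in the Dlk1-high class and lowest in the Col10a1-high class. In Dlk1-high cells it stood at 5168, 4581, 5172, 7068 and 5823 CPM in pups 1 to 5. Tgfbi-high cells held 4217 ± 1044 CPM, Fgfr3-high cells 2088 ± 471 CPM, Ihh-high cells 721 ± 288 CPM and Col10a1-high cells 209 ± 97.0 CPM, the last at 0.49-fold the Csf1r cells. In Postn-high cells Ucma was at 593 ± 253 CPM, above the Csf1r cells of the same pup in 5 of 5 pups by 1.39-fold. The granulocyte-like class held as much in the mean (604 ± 170 CPM) and the erythroid cell-like class more (1657 ± 819 CPM). In the Postn-high class 23.0% of thinned cells held a UMI, against 14.7% of macrophage-like cells.

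Mgp was highest in the Tgfbi-high class, at 5952, 4813, 6099, 4074 and 4599 CPM in pups 1 to 5. Prg4-high cells followed at 2678 ± 238 CPM without overlap, and Dlk1-high cells held 1307 ± 133 CPM. Outside cartilage, pericyte-like cells held 980 ± 370 CPM and Postn-high cells 813 ± 117 CPM, 4.09-fold the Csf1r cells.

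**Figure D3:**
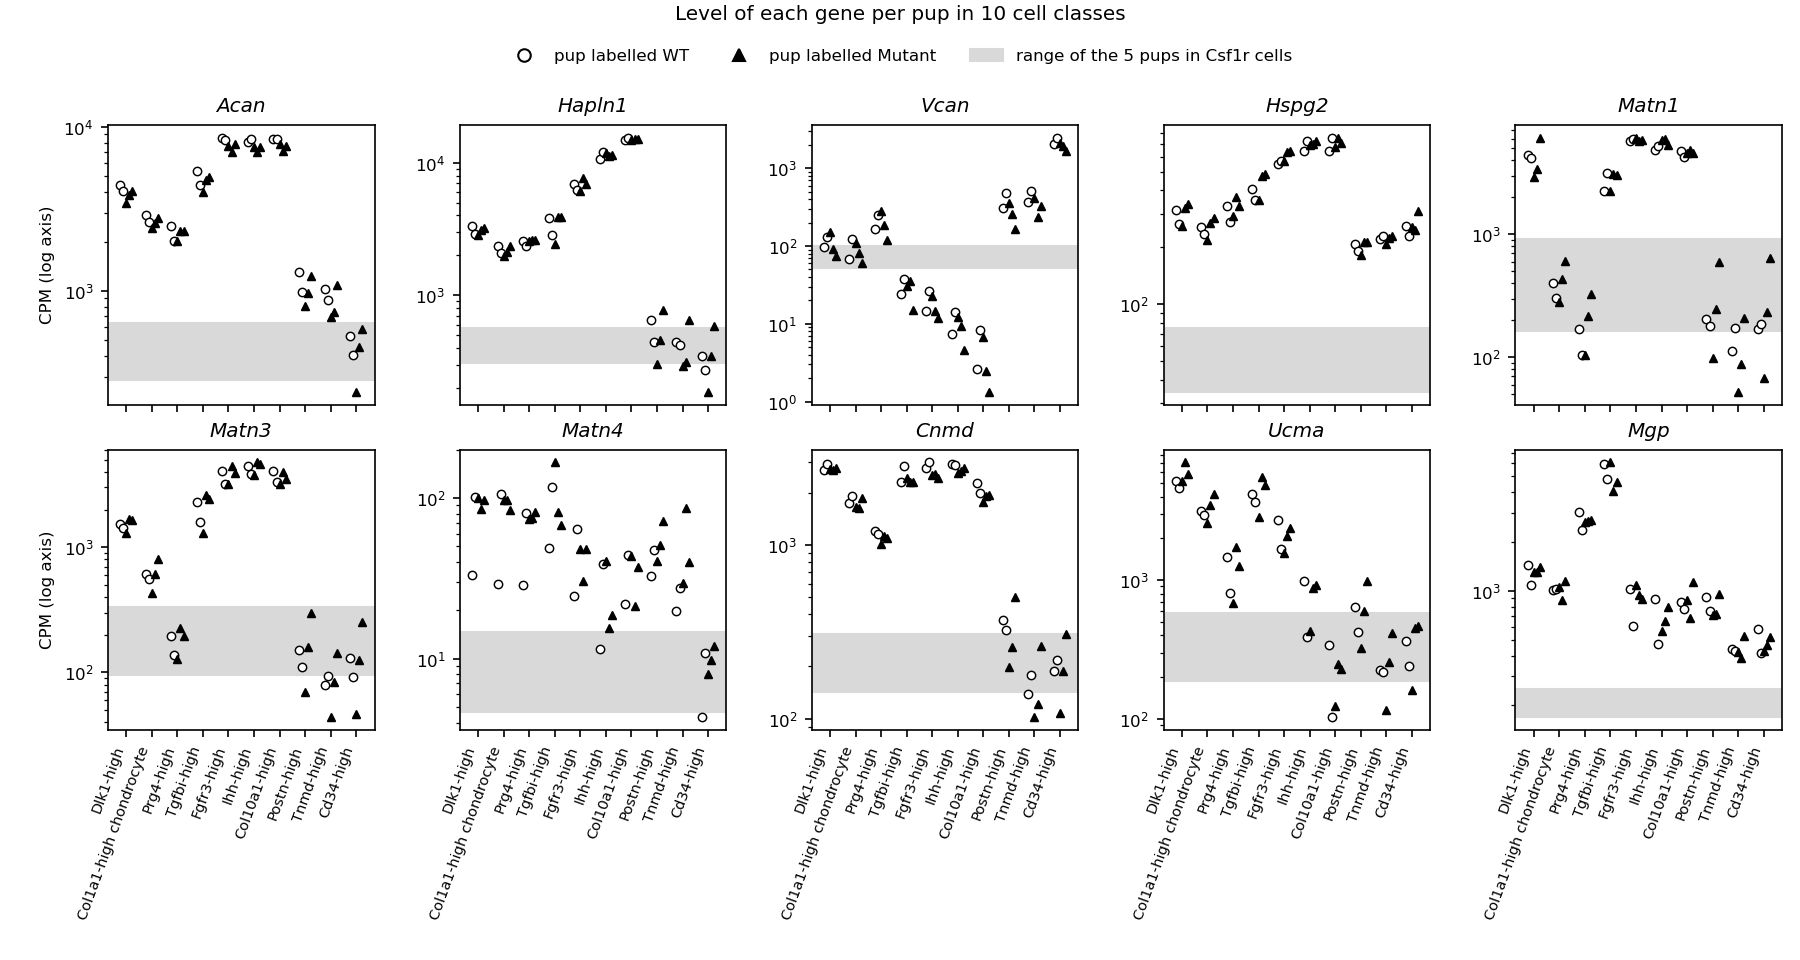
CPM (log axis) of each gene in 10 cell classes, 1 point per pup, with open circles for WT and filled triangles for Mutant pups. The grey band is the range of the 5 pups in Csf1r cells. Matn1 and Matn3 of the Prg4-high and Postn-high classes lie in or below the band, and Matn4 of pup 1 lies below the other pups in most classes.

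Gaps between classes were assessed by edgeR's quasi-likelihood test, a count model, on UMIs summed per pup and class with the pup as a block. The block removed differences that a pup showed in every class. A gap was therefore set against the variation left within pups, not against the spread between pups. The model was fitted to all 15766 genes that passed the filter on low counts. Adjusted p-values are Benjamini-Hochberg values over all those genes. The classes were made from genes of the same cells other than the 10, so a p-value here describes a gap between classes, not an experiment. In the Fgfr3-high class against the Dlk1-high class, 67.7% of all genes passed, and 8 of the 10 genes did. Acan was higher by 0.87 ± 0.08 on the log2 scale (SE, adjusted p = 1.3e-08), with Hapln1 higher by 1.01 ± 0.14, Hspg2 by 0.87 ± 0.07 and Matn3 by 1.18 ± 0.19. Vcan was lower, with a log2 fold change of -2.73 ± 0.10, as were Ucma (-1.57 ± 0.19), Matn4 (-1.05 ± 0.16) and Mgp (-0.66 ± 0.10). Vcan of the Fgfr3-high cells was below the Csf1r cells in 5 of 5 pups, and that of the Dlk1-high cells above them in only 3 of 5. Its fold thus compares levels near or below the Csf1r level, which for Vcan may not be free RNA alone. Cnmd gave -0.19 ± 0.14 with an adjusted p of 0.23. Matn1 gave 0.43 ± 0.28 with an adjusted p of 0.18, and 0.58 with an adjusted p of 0.037 without pup 5.

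From the Fgfr3-high to the Col10a1-high class, 54.1% of all genes passed and 5 of the 10 did. Hapln1 was higher by 1.21 ± 0.14 (edgeR's quasi-likelihood test, adjusted p = 7.7e-07) and Hspg2 by 0.31 ± 0.07. Ucma was lower at -3.37 ± 0.22 and Vcan at -1.82 ± 0.23. Ucma of the Col10a1-high cells was above the Csf1r cells in 0 of 5 pups in CPM, and Vcan lay below the Csf1r level in both classes. These cells were deeper, with a median of 27562 UMIs in the Col10a1-high cluster and 15556 and 23596.5 in the Fgfr3-high clusters. The Csf1r cells had medians of 6369.5 to 8584 UMIs in the pups. A fixed amount of free RNA is a smaller CPM in deeper cells, so CPM cannot tell whether these folds run past the background. The fold of Cnmd was -0.39 ± 0.14 with an adjusted p of 0.024. That call was lost without pup 1, 2, 3 or 4, where the change was -0.39, -0.31, -0.32 and -0.34. Acan (0.05 ± 0.08), Matn3 (-0.00 ± 0.19), Mgp (-0.03 ± 0.11), Matn1 (-0.31 ± 0.28) and Matn4 (-0.25 ± 0.24) did not pass. The median change of all genes in this contrast was -0.14.

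In the Prg4-high class against the Dlk1-high class, 51.9% of all genes passed and 8 of the 10 did. Matn1 had a log2 fold change of -4.67 ± 0.33 (edgeR's quasi-likelihood test, adjusted p = 3.0e-09) and Matn3 of -3.22 ± 0.20. Both levels in the Prg4-high cells were below the Csf1r cells in the mean, so these folds run past the background and their size was not read further. Ucma (-2.40 ± 0.20), Cnmd (-1.40 ± 0.14) and Acan (-0.92 ± 0.08) were also lower, and Mgp (0.95 ± 0.10) and Vcan (0.78 ± 0.09) were higher. In Prg4-high cells Ucma, Cnmd and Acan were at 2.80-, 4.59- and 4.62-fold the Csf1r cells, above them in 5 of 5 pups. Their means of 1191, 1120 and 2230 CPM were near or below those of the erythroid cell-like class, at 1657, 1093 and 2274 CPM. Vcan of the Dlk1-high cells stood only 25.4 CPM above the Csf1r cells in the mean, against 119 CPM above them in the Prg4-high cells, so most of the level that this fold is taken from is no higher than the Csf1r level. Hspg2 did not pass, at 0.00 ± 0.07, and neither did Matn4, at -0.38 ± 0.16 with an adjusted p of 0.061, which passed without pup 4 at -0.41. Hapln1 passed at -0.36 ± 0.14 with an adjusted p of 0.036, and not without pup 1, 2 or 4, where its change was -0.34, -0.35 and -0.36.

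In the Postn-high class against the Dlk1-high class, 63.8% of all genes passed and all 10 did. Vcan was higher by 1.57 ± 0.09 (edgeR's quasi-likelihood test, adjusted p = 3.7e-13) and the other 9 were lower. Above the Csf1r cells, Vcan stood at 232 CPM in Postn-high cells against the same 25.4 CPM in Dlk1-high cells, a wider gap than in the counts as deposited. Matn1 gave -4.06 ± 0.32, Matn3 -3.30 ± 0.21, Ucma -3.25 ± 0.21 and Cnmd -3.04 ± 0.15. In the Postn-high cells Matn1 and Matn3 were below the Csf1r cells in the mean, and Ucma, Cnmd and Hapln1 were at 1.39-, 1.35- and 1.28-fold their level, so these folds run to the background or past it. Hapln1 (-2.52 ± 0.14) and Acan (-1.85 ± 0.08) were lower as well, and Matn4 (-0.67 ± 0.17), Mgp (-0.62 ± 0.10) and Hspg2 (-0.50 ± 0.07) changed least.

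**Figure D4:**
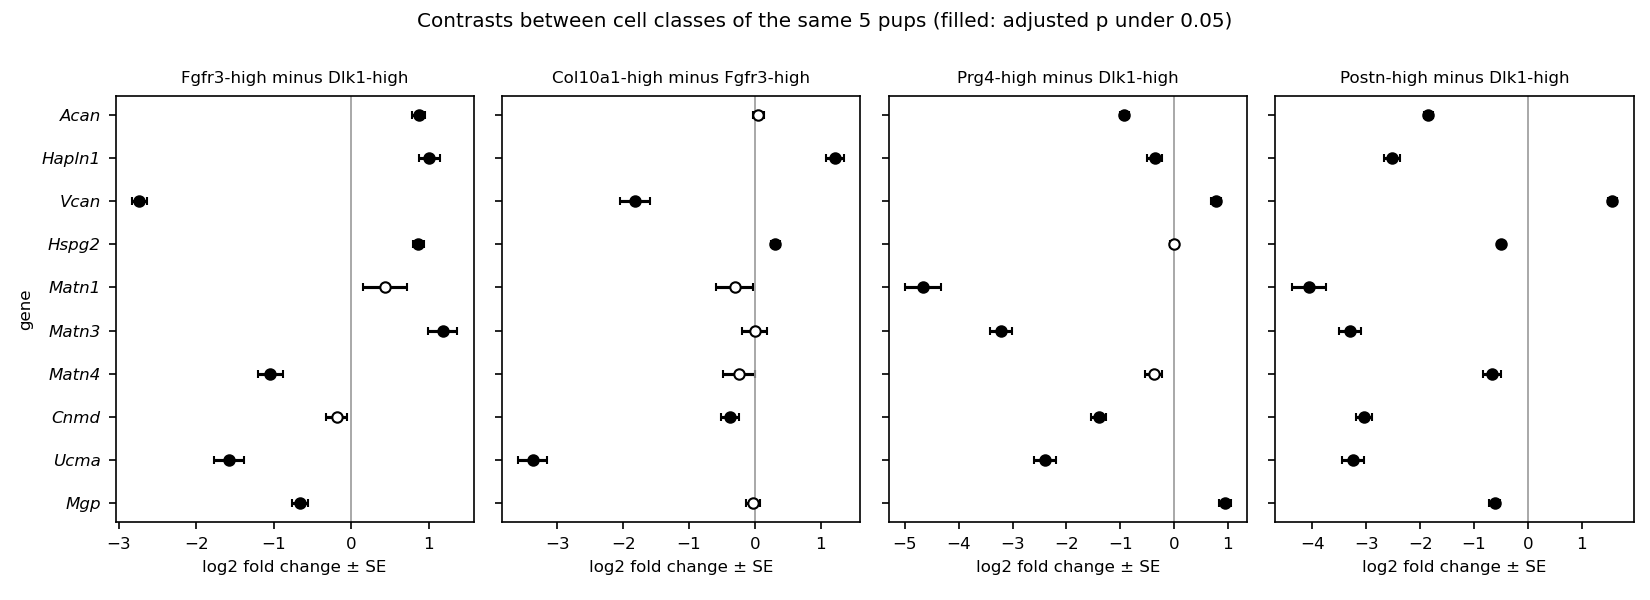
Log2 fold change ± SE of the 10 genes in 4 contrasts between cell classes of the same 5 pups, filled where the adjusted p was under 0.05. Vcan is lower in the 2 contrasts on the left and higher in the 2 on the right, and Ucma is lower in all 4.

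Partner genes from lists of the same system placed these changes in context, with the median of all genes between -0.14 and -0.00 in the 4 contrasts. Counts over these lists are read against the 67.7%, 54.1%, 51.9% and 63.8% of all genes that passed in the Fgfr3-high, Col10a1-high, Prg4-high and Postn-high contrasts. Clusters were built without the list genes, but their sorting into classes used a limit on Col2a1. It also used marker lists that held Col2a1, Col9a3, Col11a2, Sox9 and Cilp2, so the values of these genes are partly set by the sorting. Of the 7 cartilage collagen genes (Col2a1, Col9a1, Col9a2, Col9a3, Col11a1, Col11a2 and Col27a1), 7 were lower in the Prg4-high and 7 in the Postn-high class against Dlk1-high cells, with list medians of -1.10 and -3.07, and Col2a1 itself gave -0.72 ± 0.16 and -2.89 ± 0.17. In the Fgfr3-high class 1 was higher (Col27a1, 0.52 ± 0.05) and 1 lower (Col2a1, -0.77 ± 0.16). In the Col10a1-high class against the Fgfr3-high class only Col27a1 passed, at 0.11 ± 0.05. Col27a1 encodes a fibrillar collagen of cartilage. In the Csf1r cells Col2a1 stood at 9404 CPM and Col9a1 at 1217 CPM. Acan of the Postn-high cells was 2.19-fold that of the Csf1r cells, and came to 7.91% of Col2a1 UMIs against 5.26%. Col2a1 of the Postn-high cells was therefore nearer its Csf1r level than Acan, so its fold there runs toward the background. The Postn-high levels of the other collagens were not set against the background.

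The SOX factors that drive cartilage genes all passed as lower in the Col10a1-high class, with Sox5 at -1.70 ± 0.09, Sox6 at -0.79 ± 0.06 and Sox9 at -0.58 ± 0.07, whereas Acan did not pass there. All 3 were also lower in Postn-high cells, with Sox9 at -1.64 ± 0.07. In Prg4-high cells Sox5 (0.54 ± 0.07) and Sox6 (0.50 ± 0.05) were higher and Sox9 (0.12 ± 0.07) did not pass. In the Fgfr3-high class Sox9 was higher (0.33 ± 0.07) and Sox6 lower (-0.46 ± 0.05).

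Of the 9 genes of the aggrecan and hyaluronan system, 6 could be tested. The hyaluronan synthase genes diverged in Postn-high cells, where Has1 was higher by 1.74 ± 0.21 and Has2 lower at -1.75 ± 0.09. The hyaluronan receptor gene Cd44 was higher by 2.14 ± 0.18 there, and Hapln3, Ncan and Bcan were lower, so 2 were higher and 4 lower. Prg4-high cells had 2 higher (Has1 and Cd44) and 3 lower (Has2, Ncan and Bcan). In the Fgfr3-high class 1 was higher (Hapln3, 0.54 ± 0.12) and 5 were lower, with Has2 at -1.47 ± 0.09. In the Col10a1-high class Cd44 (1.41 ± 0.25) and Has2 (0.39 ± 0.12) were higher and Hapln3 (-2.02 ± 0.31) was lower.

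Of the 7 genes of aggrecan- and versican-cutting proteases, 6 were higher and 1 lower in Postn-high cells, where 63.8% of all genes passed, with a list median of 2.25. Adamts5, a main aggrecanase, was higher by 3.85 ± 0.16, from 4.17 ± 1.13 CPM in Dlk1-high cells to 56.6 ± 9.61 CPM. Adamts8 (2.46 ± 0.32), Adamts15 (2.44 ± 0.39), Adamts4 (2.25 ± 0.19), Adamts1 (1.00 ± 0.19) and Adamts9 (0.71 ± 0.17) were also higher and Adamts20 (-0.998 ± 0.27) lower. In Prg4-high cells Adamts5 (0.76 ± 0.20) was higher and Adamts1, Adamts4 and Adamts20 were lower, so the direction there was mixed. The Fgfr3-high class had Adamts5 higher (0.42 ± 0.18) and Adamts4, Adamts8 and Adamts9 lower, and the Col10a1-high class had Adamts1 and Adamts8 higher and Adamts20 lower.

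Of 8 other matrix adaptors, Snorc and Epyc were closest to Matn1 and Matn3 in pattern. Snorc was higher by 1.00 ± 0.18 in the Fgfr3-high class and lower at -1.64 ± 0.18 and -3.33 ± 0.20 in the Prg4-high and Postn-high classes, and Epyc was lower at -4.41 ± 0.19 and -3.75 ± 0.18 in the latter classes. In the Fgfr3-high class 4 of the 8 were higher (Snorc, Epyc, Prelp and Chadl) and 2 lower (Chad and Cilp2). The Col10a1-high class had 3 higher (Comp, Snorc and Chad) and 3 lower (Chadl, Epyc and Prelp). The Prg4-high class had 3 higher (Matn2, Prelp and Cilp2) and 5 lower, and the Postn-high class had 2 higher (Matn2 and Cilp2) and 6 lower. Matn2, the matrilin outside the set of 10, was higher by 1.96 ± 0.07 in Postn-high cells and by 0.56 ± 0.07 in Prg4-high cells, the opposite direction to Matn1 and Matn3. Comp, which binds matrilins and collagens, was higher by 1.36 ± 0.15 in the Col10a1-high class, where Prelp was lower at -2.31 ± 0.18. Cilp2 was higher in Prg4-high (2.04 ± 0.15) and Postn-high (3.09 ± 0.15) cells.

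Of the 4 genes that serve the carboxylation of Mgp and Ucma, the carboxylase gene Ggcx was lower in the Col10a1-high class, at -0.69 ± 0.09, and in Postn-high cells, at -0.21 ± 0.06. Nqo1, a quinone reductase gene, was lower in all 4 contrasts, from -0.27 ± 0.08 in the Fgfr3-high class to -2.80 ± 0.10 in the Postn-high class. Vkorc1 was lower in the Fgfr3-high (-0.57 ± 0.06), Prg4-high (-0.68 ± 0.06) and Postn-high (-0.34 ± 0.06) classes, and Vkorc1l1 was higher in the Col10a1-high (0.27 ± 0.09) and Prg4-high (0.18 ± 0.07) classes.

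The genes nearest in pattern to each member were found among 7347 genes by the Pearson correlation of log2 levels over the 24 classes. Acan was nearest to Comp (r = 0.96), Col27a1 and Col11a2, and Hapln1 to Fgfr3 (0.96), Scin and Slc2a1. Matn1 was nearest to Epyc (0.97), Snorc and Colgalt2, and Matn3 to Snorc (0.98), Epyc and Slc38a3. Cnmd had the closest partners of all, Col9a1 and Col9a3 (both 0.99) and Col2a1 (0.98). Ucma was nearest to Phyh (0.94), Pou3f3 and Fbln7. Vcan was nearest to Olfml2b (0.92), Llgl1 and Igfbp5, Hspg2 to Amotl2 (0.89), 1700025G04Rik and Plod3, Mgp to Map7d3 (0.86), Synpo and Calml3, and Matn4 to Chad (0.77), Fgfrl1 and Fzd9. Classes of 1 library share its depth and its free RNA, which enter every r. Fgfr3 and Col2a1 also set limits between the classes, and Col9a3 and Col11a2 were in the marker lists.

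Within the Dlk1-high class the genes varied between clusters, most of all Matn1, from 613 to 10960 CPM over 8 clusters. The highest was a cluster of 650 cells led by Arc and Sfrp5, the second of them a secreted WNT inhibitor gene of resting chondrocytes, which also had the highest Acan (7639 CPM) and the lowest Mgp (347 CPM) of the 8. It held 244, 247, 63, 1 and 95 cells of pups 1 to 5, so that it came mostly from the WT pups. Sfrp5 was also among the leading genes of the Fgfr3-high cluster of 5705 cells, which scored best for the proliferating markers. Without the cluster of 650 cells, Matn1 of the Dlk1-high class was 3924 ± 1238 CPM and Acan 3814 ± 330 CPM. Matn4 ranged from 32.2 to 246 CPM and Ucma from 2933 to 7277 CPM over the clusters. In the Postn-high class, Ucma ranged from 234 to 1180 CPM and Vcan from 174 to 849 CPM over 3 clusters.

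The genotype label was compared on sums per pup in 18 classes and in all cells, 2 WT against 3 Mutant pups. Of 189 tests of the 10 genes, 0 passed in edgeR's quasi-likelihood test, and the smallest adjusted p of a member was 0.523. At an unadjusted p under 0.05 there were 10, or 5.29% of the member tests, against 5.15% of the tests of all genes over the same comparisons. DESeq2 called 1, and its number of calls over all genes, larger than that of edgeR, is given below with the alternatives. In edgeR the background of called genes was as low as that of the members. The percentage of all genes called was 0 in all cells and in 14 of the 18 classes, 0.00846 in Cd34-high cells, 0.008 in Col1a1-high chondrocytes, 0.0333 in endothelial cell-like cells and 0.0679 in macrophage-like cells. A p that misses the threshold with 2 and 3 pups does not show that the genes were alike, and sex and depth moved with the label as given above.

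In Dlk1-high cells Acan stood at 4450 and 4082 CPM in the WT pups and at 3426, 3835 and 4082 CPM in the Mutant pups, so that the highest Mutant pup reached the lower WT pup, with a log2 fold change of -0.10 ± 0.13 (edgeR's quasi-likelihood test, adjusted p = 0.90). Ucma stood at 5168 and 4581 CPM against 5172, 7068 and 5823 CPM. The ranges did not overlap, although pups 1 and 3 were nearly equal, and the change was 0.38 ± 0.17 (edgeR's quasi-likelihood test, adjusted p = 0.76). Without the cluster led by Arc and Sfrp5, an alternative chosen after seeing the data, Acan was 4235 and 3709 CPM in the WT pups. The Mutant pups then held 3337, 3835 and 3952 CPM, with the lower WT pup inside their range. Ucma of pup 1 was then 5283 CPM, above pup 3 at 5193 CPM. In Postn-high cells Acan was at 1309 and 980 CPM against 806, 966 and 1231 CPM (-0.14 ± 0.20), Ucma at 640 and 424 CPM against 325, 596 and 983 CPM (0.31 ± 0.53) and Vcan at 306 and 484 CPM against 360, 259 and 167 CPM (-0.53 ± 0.38), all with overlapping pups. The Postn-high cluster with the most Vcan (849 CPM) held 304, 330, 353, 305 and 107 cells of pups 1 to 5. The one with the least (174 CPM) held 434, 816, 1451, 1016 and 531. The part of this mix in the Vcan change was not tested, here or in the difference of effects below. The changes of Acan in both classes and of Ucma in Postn-high cells turned sign in some of the alternatives given below. When the Csf1r level of each pup was subtracted, the Ucma change in Postn-high cells was 2.01 on the log2 scale, because little was left in the WT pups (59.5 CPM) and 240 CPM in the Mutant pups, and this value has no test.

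Because the study looked at cartilage genes of perichondrial cells, the label's effect in Postn-high cells was compared with that in Dlk1-high cells. Of 16108 genes, 4 passed (Kera, Sfrp5, Peli1 and Tnni2), or 0.0248%, and none of the 10 genes was among them. Sfrp5 and Tnni2 are also among the leading genes of the Dlk1-high cluster of 650 cells that came mostly from the WT pups, and the part of that cluster in these calls was not tested. The difference of the effects, Postn-high minus Dlk1-high, was -0.04 ± 0.10 for Acan, -0.17 ± 0.51 for Ucma and -0.48 ± 0.13 for Vcan (edgeR's quasi-likelihood test, adjusted p = 0.65 for Vcan).

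Of the 10 tests with an unadjusted p under 0.05, the smallest p was that of Mgp in granulocyte-like cells, at 211 and 178 CPM in the WT pups and at 484, 648 and 655 CPM in the Mutant pups. Its log2 fold change was 1.65 ± 0.29 with the adjusted p of 0.523 given above, and 1.67 with an adjusted p of 0.0021 in DESeq2. The granulocyte-like cells numbered 29 in the smallest library. Their WT values lay near those of the Csf1r cells of the same pups (182 and 179 CPM). With the Csf1r level of each pup subtracted, 14.2 CPM was left in the WT pups and 385 CPM in the Mutant pups, a difference that has no test. Vcan in endothelial cell-like cells gave -1.17 ± 0.31 with an adjusted p of 0.73, from 139 and 178 CPM in the WT pups to 97.8, 46.3 and 42.5 CPM in the Mutant pups. In pups 4 and 5 this was below the Csf1r cells of the same pup (99.2 and 83.2 CPM).

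Matn4 showed how 1 library can set a label difference. With all pups its change was 0.57 ± 0.42 in Dlk1-high cells, 0.56 ± 0.43 in Prg4-high cells and 0.57 ± 0.60 in Col1a1-high chondrocytes, none of which passed. Without pup 2, pup 1 with its low Matn4 stood alone for WT, the lone pup being assumed to vary like the others. The change was then 1.52, 1.38 and 1.68 with adjusted p of 0.0067, 0.0017 and 1.0e-05 in edgeR's quasi-likelihood test, while 0.0539%, 0.0597% and 0.126% of all genes passed. Without pup 1 it was -0.05 in Col1a1-high chondrocytes.

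**Figure D5:**
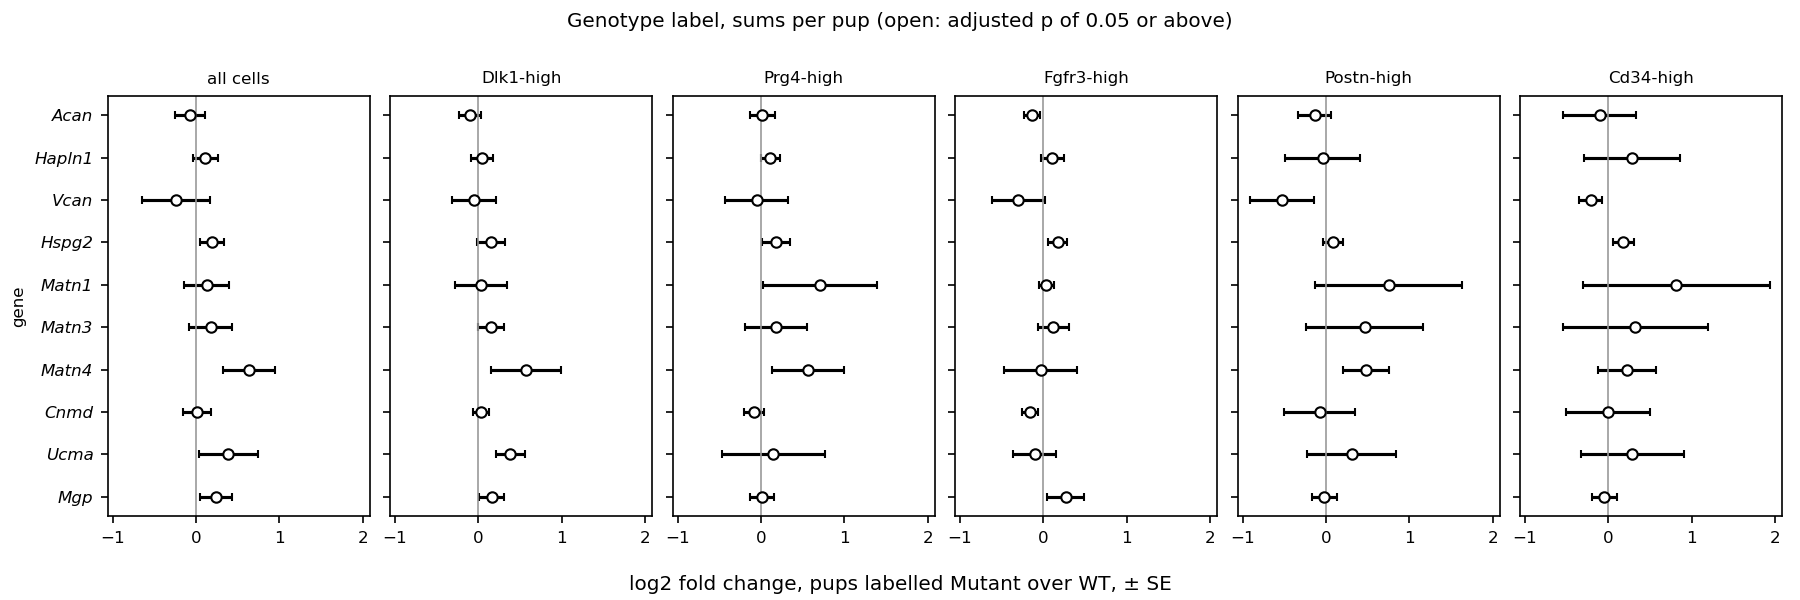
Log2 fold change ± SE of the 10 genes, Mutant over WT pups, in all cells and 5 classes. All points are open because none passed at an adjusted p under 0.05.

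Shares of thinned cells with a UMI of a member were compared between the labels in 70 exact permutation tests over the 10 groupings of 2 and 3 pups, which cannot go below p = 0.1. Of these, 5 reached 0.1 and every adjusted p was 1.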

How the data were processed

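Single cells of 5 pups were profiled with BD Rhapsody HT Express. What the authors deposited for each library were raw UMI counts by gene and barcode, from a cloud pipeline whose version is not given in the sources used here, with mm10 as the genome build per the submitters' processing notes. The 10 genes and the gene lists were chosen with earlier results of these data known.

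The study's own limits on cells were applied (200 to 6000 genes and at most 10% mitochondrial UMIs). Pearson residuals (theta 100) of 3000 variable genes, without the members, the lists and sex-linked genes, gave 50 principal components, 20 nearest neighbors and 47 Leiden clusters (resolution 1.5, scanpy 1.11.5, leidenalg 0.10.2). Clusters were scored by marker lists. The lists for resting and proliferating cells did not separate zones, so matrix classes were called by CPM limits (Mmp13 5000, Col10a1 5000, Ihh 100, Fgfr3 400, Tgfbi 1000, Col2a1 20000, Prg4 6000, Col1a1 30000, Tnmd 1000, Cd34 500, Postn 1000), set after the clusters' marker levels were seen. Dlk1 had no limit, and Dlk1-high names the clusters that the limits left over. The contrasts planned for resting, proliferating, hypertrophic, articular and perichondrial cells were run on the Dlk1-high, Fgfr3-high, Col10a1-high, Prg4-high and Postn-high classes in their place. Marker scores did not place every cluster of the first 3 classes in those zones.

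UMI counts were summed per pup and class and tested with edgeR 4.0.16 (TMM, filterByExpr, robust quasi-likelihood fit, Benjamini-Hochberg at 0.05) in R 4.3.3. Levels are CPM of the sums, given as the mean ± SD of the 5 pups, and standard errors belong to log2 fold changes. For edgeR they were computed as the absolute log2 fold change divided by the square root of the test's F statistic. Pups are separate animals but littermates. Scripts were tested on simulated data. Alternatives were DESeq2 1.42.0, no filter on low counts, resolution 0.8, no upper limit on genes, members among the features, doublets removed, free RNA subtracted and each pup left out. The low-count filter, the upper limit on genes and the subtraction were varied for the genotype label only. Scrublet's automatic threshold marked almost no cell in pup 5, so the mean threshold of the other pups was used there. Doublets were kept in the results above.

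All members were named, with list genes past the threshold and the 3 genes nearest in pattern over the classes among those with at least 50 CPM in 1 class, by log2(CPM + 5). Kera, Sfrp5, Peli1 and Tnni2 were named after their values were seen. Sequences are from RefSeq (GRCm38.p6) and gene positions from GENCODE M21. Promoter windows were matched for 9 of the 10 genes, the exception being Mgp.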

Additional observations from a re-analysis of the deposited data

How the results depend on the processing

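Of the 31 member contrasts between classes that passed, none reversed under the 9 alternatives run for them (each pup left out, resolution 0.8, members among the features, doublets removed and DESeq2), and a call was lost only for Cnmd in the Col10a1-high class and Hapln1 in the Prg4-high class, each when single pups were left out, at resolution 0.8 or with doublets removed, and for Cnmd also with members among the clustering features. Among those that had not passed, Mgp in the Col10a1-high against the Fgfr3-high class moved from -0.026 to 0.023 with members among the features, 0.021 with doublets removed and 0.067 in DESeq2, and ran from -0.088 to 0.106 with a pup left out. The genotype label called 12 genes over 19 comparisons, 169 in DESeq2, 945 without the filter on low counts and 7 to 414 with a pup left out. The 414 came without pup 2, 162 without pup 5 (Xist and Y chromosome genes among them), 82 without pup 1, 22 without pup 3 and 7 without pup 4. Members called by the label were 0, against 1 in DESeq2 (Mgp in granulocyte-like cells), 3 without the filter (Vcan in endothelial cell-like cells, Mgp in granulocyte-like and pericyte-like cells), 2 with no upper limit on genes (Matn1 and Cnmd in the Col1a1-high class with low Postn) and 0 to 3 with a pup left out: Matn4 in 3 classes without pup 2, Ucma in the Prg4- and Cd34-high class and Matn3 in pericyte-like cells without pup 3, and Mgp in pericyte-like cells without pup 1. Dlk1-high cells had 0 genes called, 41 in DESeq2, 19 without the filter and 0 to 15 with a pup left out. Postn-high cells had 0, 10 in DESeq2, 118 without the filter, 1 with members among the features and 0 to 6 with a pup left out. The difference between these classes had 4, and 0 to 9 with a pup left out. With a pup left out, the label's log2 fold change ran from -0.20 to 0.012 for Acan in Dlk1-high cells, from -0.33 to 0.10 for Acan and from -0.12 to 0.65 for Ucma in Postn-high cells, and from -0.047 to 1.68 for Matn4 in Col1a1-high chondrocytes. The difference of effects ran from -0.15 to 0.063 for Acan and from -0.52 to 0.15 for Ucma. Acan in Postn-high cells was 0.069 with no upper limit on genes, and Ucma there 2.01 with free RNA subtracted. The cause of these changes was not tested. Of the member calls under the alternatives, only those of Matn4 have a share of all genes beside them, given above. The other member calls stand without such a share and were not read as a result about the members.

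Read from any cell with 3 UMIs of the marker, whatever its cluster, the background of Csf1r cells was 52.5 CPM for Vcan and 150.4 CPM for Mgp. That of Pecam1 cells was 1553 CPM for Acan, 1611 for Hapln1, 1080 for Matn1, 871 for Matn3, 602 for Cnmd and 639 for Ucma. Leaving out the cluster with the most Sfrp5 and joining the Postn-, Tnmd- and Cd34-high classes were alternatives chosen after seeing the data. At resolution 0.8 no Ihh-high or Cd34-high class formed, so those comparisons have no value there. No paired analysis was possible because the WT and Mutant pups share no pairing number in the labels. The contrasts between classes already had the pup as a block.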

Other observations

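In the Dlk1-high and Fgfr3-high classes, the cluster with the highest Mki67 (2538 and 1286 cells) was led by other genes of dividing cells, such as Top2a and Prc1 in the former and Ccnb1 and Cdk1 in the latter, and is called cycling here. A Tnmd-high cluster of 1710 cells was also led by such genes (Anln, Top2a) and was not compared. Acan was lower in the cycling cells in 5 of 5 pups of both classes, at 3502 ± 459 CPM against 4065 ± 368 CPM in the other Dlk1-high cells and at 6768 ± 722 CPM against 8309 ± 501 CPM in the other Fgfr3-high cells (SD, n = 5). Only the latter ranges did not overlap. Matn1 was lower too, at 2370 ± 695 against 4540 ± 1266 CPM and at 5326 ± 295 against 6022 ± 195 CPM, and again only the Fgfr3-high ranges were apart. The other Dlk1-high clusters ran from 3116 to 7639 CPM in Acan and from 613 to 10960 CPM in Matn1, so the cycling cluster lay inside their spread. Matn3 went the other way in Fgfr3-high cells, at 4518 ± 498 against 3523 ± 570 CPM and higher in 5 of 5 pups. Hapln1 was higher in the cycling Dlk1-high cells in 5 of 5 pups, at 3394 ± 306 against 3018 ± 212 CPM, and higher in only 1 of 5 pups among the Fgfr3-high cells. Hspg2 was lower in the cycling cells in 5 of 5 pups of both classes. These are descriptions of clusters made from other genes of the same cells and were not tested.

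A class of 76 cells with high Mmp13, led by Mmp9, Mmp13 and Spp1, was too small to be compared, with 9 cells in the smallest library. It held Acan at 507 ± 403 CPM and Matn1 at 295 ± 352 CPM, and Vcan at 949 ± 347 CPM, against 483, 422 and 83.5 CPM in the Csf1r cells, so that Acan and Matn1 were not distinguishable from the background. Schwann cell-like cells, 106 in all and 5 in the smallest library, held Vcan at 1144 ± 260 CPM and Hspg2 at 458 ± 54.3 CPM.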
